A study of Homo sapiens with 12 samples.

Results

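Gene expression was measured in A375 cells, an established human melanoma line, in which a short hairpin RNA against MELK (shRNA #31) had been switched on with doxycycline, and was compared with the same cells given vehicle. The comparison used 6 of the 12 arrays of the series, chosen by sample title, 3 for doxycycline and 3 for vehicle, each after 3 days. Both groups carried the same inducible hairpin and differed by label in doxycycline, and no group without a MELK hairpin was analysed here. Doxycycline itself, the burden of any induced hairpin and the loss of MELK therefore cannot be told apart. The sources used here give neither the promoter that drives the hairpin nor whether the line was 1 clone. The other 6 arrays held the same line with a second hairpin (shRNA #33), again 3 with doxycycline and 3 with vehicle. The unit of description was the probe row of the array table, and 20376 of 48107 rows (42.4%) qualified by a detection p-value under 0.05 on at least 3 of the 6 arrays. A detection p-value ranks a row against negative control beads on the same array. Just inside this rule, the 1513 rows detected on 3 of the 6 arrays had a median intensity of 104.9 units. Just outside it, the 2141 rows detected on 2 arrays had a median of 103 units. Of the rows kept, 16224 (79.6%) were detected on all 6 arrays, with a median intensity of 213 units.

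MELK is a serine/threonine kinase related to the AMP-activated protein kinase, and dividing cells make it around mitosis. A short hairpin RNA is cut by Dicer into a small interfering RNA, which guides the RNA-induced silencing complex to a matching transcript for cleavage. In an inducible line the hairpin is meant to be transcribed when doxycycline is given, so treated and untreated cells share 1 genetic background. A hairpin can also lower transcripts that match only its seed, which is why studies usually set 2 different hairpins against the same target side by side.

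The deposited identifiers did not follow the intensities, so rows are described without gene names. Rows filed under 1 gene symbol had unrelated levels (Pearson r = -0.013 across 6691 symbols, the first pair of rows of each, on the 6 arrays). The level of a single row correlated at 0.9986 between the arrays of hairpin 31 and those of hairpin 33, over all 48107 rows. These are correlations across rows, which share arrays and are not independent replicates. The knockdown could not be read for the same reason. Of 2 rows filed under MELK, ILMN_2212909 gave 130.46, 124 and 125 units with vehicle and 103, 124 and 113 with doxycycline, a log2 difference of -0.20 (SE 0.12, limma adjusted p = 0.639). The other, ILMN_1731184, was detected on 0 of the 6 arrays. The labelled cell type could not be checked either: 5 of 13 rows filed under melanocyte genes qualified, against 4 of 10 for fibroblast, 3 of 6 for blood and 5 of 7 for epithelial genes. Identifiers such as ILMN_1804611 serve below only to find a row in the table, and nothing is said of the gene filed under it.

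The 6 arrays differed in brightness. Mean intensity was 339, 289.8 and 309.9 units on the vehicle arrays and 234.4, 328.4 and 289.2 units on the doxycycline arrays, in replicate order. The groups overlapped, and their means of 313 and 284 units gave a two-sided p of 0.4 in an exact permutation test over arrays (n = 3 in each), where 0.1 is the smallest p that 20 splits allow. The dimmest was replicate 1 of the doxycycline group, and without it the difference of -28.92 units between the groups shrank to -4.137. Detected rows numbered 20822, 20545 and 20682 with vehicle and 19624, 20268 and 20499 with doxycycline. Every doxycycline array detected fewer rows than every vehicle array, which gives the smallest p possible here, 0.1 (exact permutation test, both sides, n = 3 in each group). On a raw scale, 95.4% of the rows had a lower mean with doxycycline. All values below are background-corrected, offset and quantile-normalized log2 intensities unless called raw, which removes differences in overall brightness between arrays. All 12 arrays shared 1 chip, with vehicle on the first 6 lettered positions and doxycycline on the last 6, so chip position and treatment cannot be told apart.

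Few rows were called for hairpin 31 with 3 arrays in each group, and most of those were lower with doxycycline. Of the 20376 rows, 137 (0.672%) were called at a limma adjusted p under 0.05, of which 115 were lower (0.564% of rows) and 22 higher (0.108%) with doxycycline. All 6 arrays detected 119 of the called rows, and 18 were detected on fewer, where 79.6% of all rows tested were detected on 6. The median size of a called change was 0.67 on the log2 scale, against 0.10 over all rows. Of the 137, 24 changed by at least 2-fold (0.118% of rows), 22 down and 2 up, and 0 further rows reached 2-fold without being called. On the background-corrected scale 3 rows passed 4-fold, ILMN_1804611 and ILMN_1773758 downward and ILMN_1708304 upward. In the authors' value table their log2 differences were -2.00, -1.44 and 0.99, and the vehicle level of ILMN_1708304 lay at background. The 22 rises numbered 11 to 13 without any 1 array other than replicate 2 with doxycycline, where they numbered 19, and 9 with the fit restricted to the 6 arrays. The count of all calls was 83 without replicate 2 and 82 without replicate 3 of the vehicle group, and 81 in the restricted fit.

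Falls made up a larger share of the larger changes up to 2-fold, and of the changes with smaller p. Over all rows tested the directions balanced, with 10018 lower and 10358 higher and a median log2 difference of 0.0034. At an absolute log2 difference of at least 0.25 there were 2397 rows, of which 54.7% were lower. At 0.5 there were 212 rows and 79.2% were lower, and at 1 there were 24 rows and 91.7% were lower. At 1.5, 7 of 8 rows were lower, and at 2, 2 of 3. By unadjusted limma p, 1934 rows (9.49%) lay under 0.05, of which 55.1% were lower. Under 0.001 there were 208 rows and 77.9% were lower. The balance depends on scaling, because quantile normalization gives every array the same distribution. With each array centred on its median in place of quantile normalization, the median over the rows moved to -0.14 and 80% of rows were lower. The calls then numbered 96, with 93 lower and 3 higher, a share of 96.9% lower against 83.9%.

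**Figure D1:**
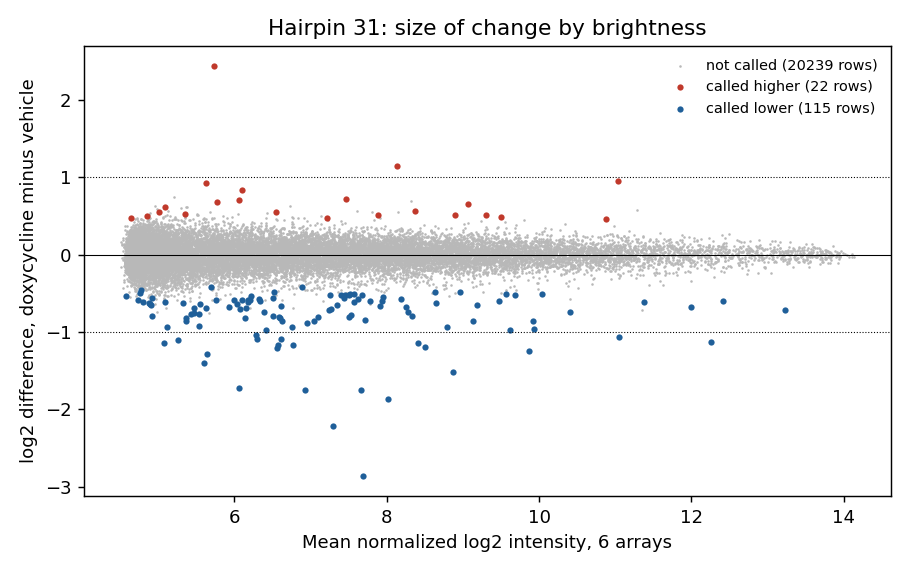
Each point is 1 of 20376 probe rows, placed by its mean normalized log2 intensity over the 6 arrays (horizontal) and its log2 difference, doxycycline minus vehicle (vertical), with dotted lines at 2-fold. The 115 rows called lower spread over the whole brightness range and reach -2.86, while the 22 called higher mostly stay below 1.

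The largest falls were steep and of similar size on all 3 doxycycline arrays. Row ILMN_1804611 gave raw intensities of 722, 608 and 638 units with vehicle and 125, 159.95 and 157 with doxycycline. Every doxycycline array lay far below every vehicle array. Its normalized log2 level with vehicle was 9.11 ± 0.06 (SD, n = 3). Under doxycycline it was 6.25 ± 0.16 (SD, n = 3), a difference of -2.86 (SE 0.13, limma adjusted p = 1.28e-08). Row ILMN_1773758 went from 496, 416 and 400.1 raw units to 123, 168 and 145. The groups were again well apart, and the log2 difference was -2.22 (SE 0.10, limma adjusted p = 1.28e-08). Row ILMN_1737586 went from 716, 545 and 539 units to 160.45, 233 and 205. Its log2 difference was -1.87 (SE 0.11, limma adjusted p = 2.77e-07), and its 3 doxycycline arrays differed by an SD of only 0.05. Row ILMN_1806256, at 387, 279 and 291 units with vehicle and 115, 159.59 and 145 with doxycycline, fell by 1.75.

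The next 6 falls covered a wide range of starting levels. ILMN_2284591 fell by 1.75, from a mean of 474 raw units to 179.69, and ILMN_1758983 fell by 1.73, from 209 to 114. ILMN_3240465 started at 1152, 737 and 873 units and ended at 239, 458 and 305. Its groups did not overlap although replicate 2 with doxycycline stood well above the other two, and the log2 difference was -1.51 (SE 0.14, limma adjusted p = 3.01e-05). ILMN_1911569 and ILMN_1867188 started at means of 164 and 163 units and fell by 1.40 and 1.28. They ended close to background, at means of 107 and 109 units with doxycycline. ILMN_2204297 was the brightest of the 10, at 1809.5, 1466 and 1455 units with vehicle and 540.12, 674 and 633 with doxycycline, and fell by 1.25 (SE 0.13, limma adjusted p = 0.000123). These 10 falls were called under all 17 alternatives tried for each. The alternatives reuse the arrays on which the 10 were chosen as the largest called falls, so this is not separate support. Their size on the log2 scale shrank in the authors' value table, which carries no background correction, to -2.00 for ILMN_1804611 and to -0.49 for ILMN_1867188.

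Rises were fewer and smaller, and 1 row stood apart. Row ILMN_1708304 gave 105, 99.9 and 107 raw units with vehicle, where 1 of 3 arrays detected it. With doxycycline it gave 152, 231 and 188 units and was detected on all 3. No vehicle array came near a doxycycline array, and the log2 difference was 2.44 (SE 0.14, limma adjusted p = 1.40e-07). The row met the detection rule only through the doxycycline arrays, where it was high. Neither the separation nor the p-value is therefore separate support. Because its vehicle level lay at background, the size is uncertain: it was 0.99 in the authors' value table. The second was ILMN_3291614, with 298, 266 and 271 units with vehicle and 312, 597 and 462 with doxycycline (log2 difference 1.14, SE 0.11, limma adjusted p = 4.93e-05). The raw groups lay close at replicate 1 with doxycycline, the dimmest array, and were separated by the normalization.

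The third rise had the smallest pooled spread of all called rows. ILMN_3185278 gave 1821, 1476 and 1606 raw units with vehicle and 2007, 3376 and 2784 with doxycycline. After normalization its level was 10.55 ± 0.02 (SD, n = 3) and 11.51 ± 0.01 (SD, n = 3), a difference of 0.96 (SE 0.09, limma adjusted p = 4.28e-05). The other 7 of the 10 largest rises, from ILMN_2184535 down to ILMN_1749109, had log2 differences between 0.62 and 0.93. Of these 7, each lost its call with median centring. ILMN_1749109 also lost it without each array in turn except replicate 2 with doxycycline, at limma adjusted p from 0.0744 to 0.167. ILMN_1744830 lost it without replicates 1 or 3 of either group, at limma adjusted p from 0.0825 to 0.123. Of all 22 rows called higher, only 3 were without overlap between the groups in raw intensity, against 113 of the 115 called lower. In raw intensity, 1581 of all rows lay lower without overlap and 4 lay higher, so the raw scale favours falls throughout.

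**Figure D2:**
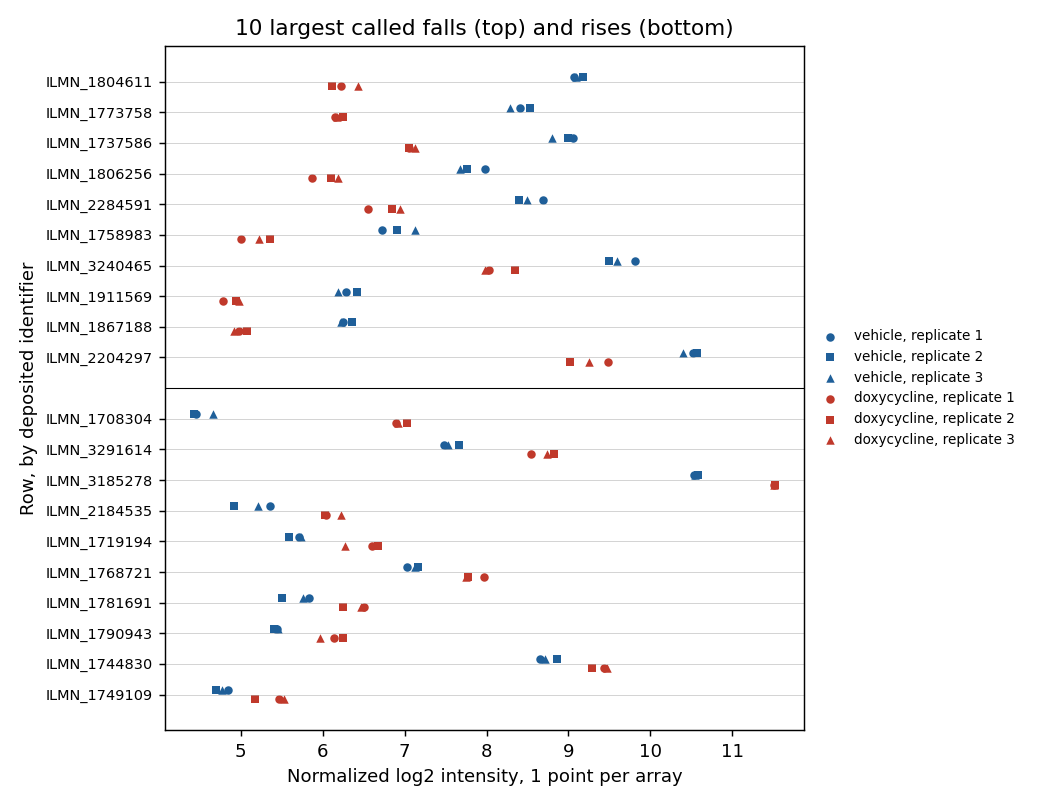
The 10 rows with the largest called falls (top) and the 10 with the largest called rises (bottom) are shown by normalized log2 intensity, 1 point per array, blue for vehicle and red for doxycycline, with 1 marker shape per replicate number. In all 20 rows the 3 red points lie wholly to one side of the 3 blue points.

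The brightest called rows all fell. ILMN_2358980 gave 14193, 11283 and 12405 raw units with vehicle and 5777, 8858 and 6132 with doxycycline, and its normalized log2 level fell by 0.72 (SE 0.12, limma adjusted p = 0.00564). ILMN_1660097 gave 9346, 6781 and 6697 units and then 1889, 3787 and 3868. Its groups were further apart than those of ILMN_2358980, with a fall of 1.13 (SE 0.14, limma adjusted p = 0.000575). ILMN_1780382, ILMN_2083593 and ILMN_1858624, with vehicle means of 12.71, 12.33 and 11.68 on the normalized log2 scale, fell by 0.60, 0.67 and 0.62. The log2 difference of ILMN_2083593 was nearly the same in the authors' value table, at -0.66.

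On the background-corrected scale, differences and the spread between replicates were both smallest among the brightest rows. The rows were divided into 10 equal parts by mean normalized level. The median absolute difference was 0.11 in the dimmest part, 0.13 in the third and 0.068 in the brightest. In the authors' value table the order of the ends was the opposite, with 0.034 in the dimmest part and 0.066 in the brightest. The median SD over the 3 vehicle arrays was 0.155, 0.165 and 0.084 in the same parts, and over the 3 doxycycline arrays 0.179, 0.200 and 0.086. Differences are between means of 3 arrays and spreads between single arrays, so the sizes of both are not set against each other. The doxycycline arrays spread more than the vehicle arrays among dim rows, by 1.21 times in the third part, and by 1.02 times in the brightest. Over all rows the doxycycline SD was the larger in 54.8%.

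Calls were most frequent at middle brightness. The dimmest part held 3 called rows (0.147%), the fourth 18 (0.883%), the seventh 23 (1.13%) and the brightest 10 (0.491%). Falls outnumbered rises in each part, with 2 against 1 in the dimmest, 21 against 2 in the seventh and 8 against 2 in the brightest. Changes of at least 2-fold were absent from the dimmest 2 parts and numbered between 2 and 5 in each of the others. The smallest difference that was called was 0.42. For 81.5% of the rows the 95% interval of the difference lay wholly within 0.5 of 0 on the log2 scale, and for 99.7% within 1. Both shares rest on the offset scale, which compresses differences of dim rows.

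**Figure D3:**
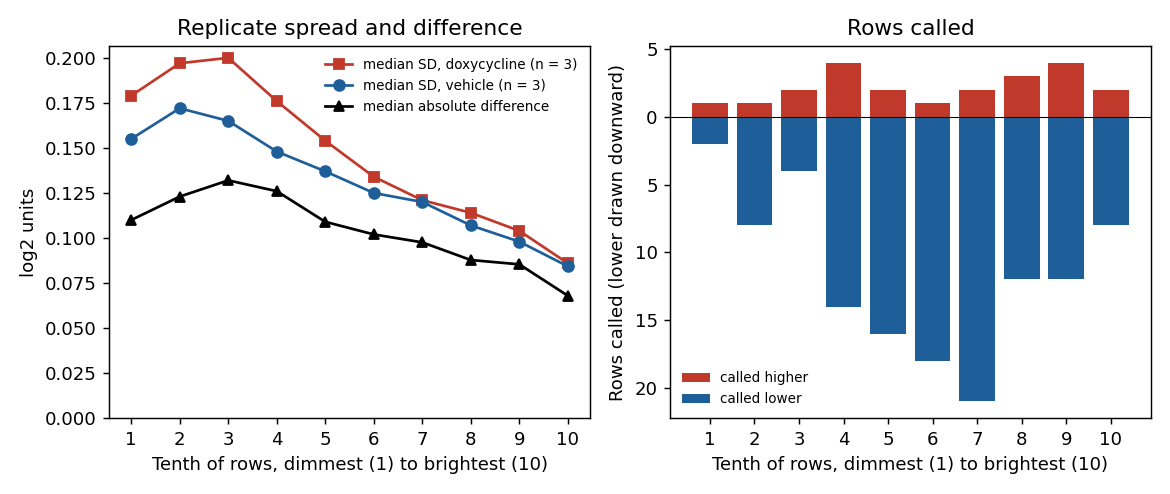
Left, the median SD within the doxycycline group (red) and the vehicle group (blue) and the median absolute difference between them (black), in log2 units, for 10 equal parts of the rows from dimmest to brightest; right, the number of rows called higher (red, upward) and lower (blue, downward) in each. All 3 lines are lowest in the brightest part, and calls peak in the seventh with 23 rows.

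Rows that switched on or off were near background, and groups that both lacked doxycycline gave nearly as many. A row was counted as switched off when all 3 vehicle arrays and 0 doxycycline arrays detected it, and as switched on in the opposite case. There were 148 such rows (0.726%), 105 off (0.515%) and 43 on (0.211%). Such rows pass the detection rule only through the group that detects them, so a difference is built into their choice. The same count between the vehicle groups of both hairpins, where no doxycycline was given, was 133. Of these, 79 were detected only with hairpin 31 and 54 only with hairpin 33. Between vehicle and doxycycline of hairpin 33 the count was 174, with 97 off and 77 on. Without 1 array, 2 detections suffice in its group, which makes the rule looser. Without replicate 1 of the doxycycline group there were then 163 off and 175 on, against 248 and 171 without replicate 2 and 235 and 133 without replicate 3. Without 1 vehicle array there were 276 to 295 off and 86 to 113 on. Off thus exceeded on in 5 of these 6 counts, which share arrays and are not independent. Every doxycycline array also detected fewer rows than every vehicle array over the whole table. Whether that accounts for the surplus of off rows was not tested.

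The switching rows had little intensity to lose or gain. The 105 rows switched off had means between 108 and 134.6 raw units on the vehicle arrays, and between 93.6 and 101.8 on the doxycycline arrays. The 43 rows switched on had a median of 104.1 units with vehicle, at most 106, and of 105.5 with doxycycline, at most 109.1. All 43 of these and 104 of the 105 lay in the dimmest 2 of the 10 parts. Of the 148, 7 were called, 6 off and 1 on, against 0.672% of all rows, and nothing is read from this because the rows were chosen by a difference in detection. The same switch was seen with hairpin 33 for 3 of the off rows and 1 of the on rows. With a detection p under 0.01 required where a row was on, 16 were left, 14 off and 2 on.

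The clearest single case was ILMN_1697559, which was switched off. It gave 147, 128 and 129 raw units with vehicle and 93.0, 108 and 97.0 with doxycycline. Every doxycycline array lay below every vehicle array (limma adjusted p = 3.01e-05). It was not well above background on any doxycycline array, and the size of its fall depended on the background correction, so no fold is given. ILMN_1766054 followed, with 124, 113 and 116 units against 90.9, 103 and 103 (limma adjusted p = 0.00507). Its call was lost in the authors' value table (limma adjusted p = 0.0925). Both rows were chosen by detection on these same arrays, so neither the separation nor the p-values are separate support for a switch. The brightest row that was switched on, ILMN_1748874, gave 109.59, 102 and 106 units with vehicle and 98.1, 117 and 113 with doxycycline. These raw values overlapped, and it was not called (limma adjusted p = 0.121).

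**Figure D4:**
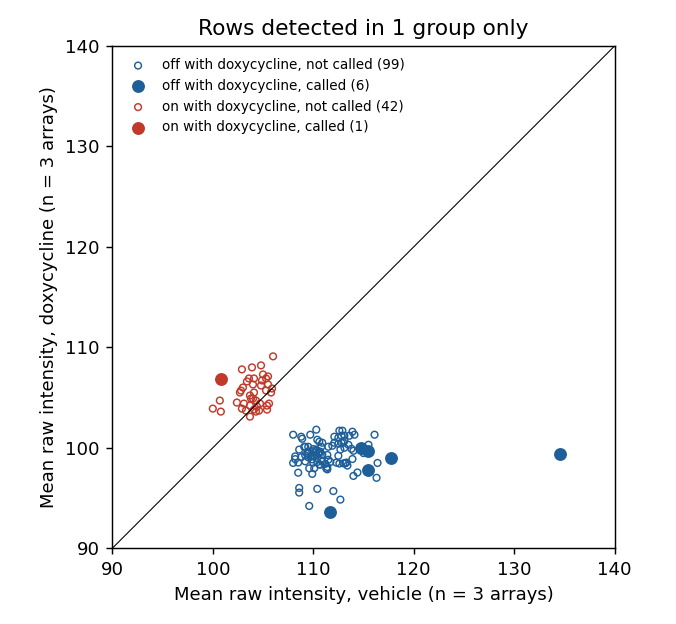
Mean raw intensity with vehicle (horizontal) against doxycycline (vertical), each over 3 arrays, of the 148 rows detected on every array of 1 group and on 0 arrays of the other, with the line of equality. Filled points are the 7 called rows, and the point at 134.6 vehicle units is ILMN_1697559.

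Replicates within a treatment were hardly more alike than arrays of different treatments. The root mean square difference over the 20376 rows was 0.222 to 0.240 between vehicle arrays (3 pairs) and 0.234 to 0.281 between doxycycline arrays (3 pairs). Between the treatments it was 0.231 to 0.303 (9 pairs). The smallest of these 9, between replicate 1 with vehicle and replicate 2 with doxycycline, was below the largest among vehicle arrays. The largest was between replicate 1 with vehicle and replicate 1 with doxycycline. The first principal component of the 6 arrays held 30.1% of the variance. The vehicle arrays scored -16.1, -7.36 and -5.51 on it, and the doxycycline arrays 24.8, -3.26 and 7.47. The groups did not overlap there, but replicate 2 with doxycycline lay closer to vehicle replicates 2 and 3 than to either of its own replicates. Rows without overlap between the treatments numbered 2954 (14.5%), 7.84% lower and 6.66% higher. For any row, a share of 0.1 of the 20 possible splits of the 6 arrays leaves no overlap. All 137 called rows were among the 2954, which is no separate support because the calls came from these same arrays.

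The same rows were then read in the other line. The 2 hairpins share no arrays, and both comparisons used 1 fit. Each row has 1 estimate of spread in that fit, so a low estimate favours calls for both hairpins. Chip position followed treatment in both lines. With hairpin 33, 563 of the 20376 rows (2.76%) were called, 1.59% lower and 1.17% higher. Of the 137 rows called for hairpin 31, 75 (54.7%) were called for hairpin 33 in the same direction, 68 lower and 7 higher, which is 13.3% of the 563. Of the 137, 120 had the same sign with hairpin 33, against 56.1% of all rows. The 115 rows called lower had a median log2 difference of -0.69 with hairpin 31 and -0.49 with hairpin 33, and the 22 called higher had medians of 0.55 and 0.17. The medians over all rows were 0.0034 and 0.00047. The 137 rows were chosen by their values with hairpin 31, which favours larger medians there. The sizes of the 2 hairpins are therefore not compared on these rows.

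Most of the largest changes recurred in direction, though not all in size. Of the 24 rows changed at least 2-fold with hairpin 31, 22 were called in the same direction with hairpin 33. ILMN_1804611 stood at -2.44, ILMN_1773758 at -2.26 and ILMN_1708304 at 2.58 with hairpin 33 (limma adjusted p = 6.91e-08, 1.96e-08 and 6.91e-08). The interaction test did not call them, at differences between hairpins of 0.42, -0.04 and 0.14 (SE 0.19, 0.15 and 0.20, limma adjusted p = 0.489, 0.966 and 0.886). It did call 4 of the 24 rows. Of these, ILMN_1737586 and ILMN_1806256 stood at -1.87 and -1.75 with hairpin 31 and at -0.69 and -0.64 with hairpin 33. Their differences had limma adjusted p = 0.00322 and 0.00464. The other 2 were the rows not called for hairpin 33, ILMN_3291614 and ILMN_1697559, at 0.02 and -0.33. These 2 were singled out after their values were seen.

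The effect of induction differed between the hairpins for 72 rows (0.353%) by the interaction test (limma adjusted p under 0.05), more positive with hairpin 33 in 46 of them (0.226%). Without adjustment 9.7% of rows passed. Of these 72, 15 were among the 137 rows called for hairpin 31. For 12 of the 15 the effect was more positive with hairpin 33, and for 3 more negative. The 15 were chosen through calls for hairpin 31, most of them falls, which favours more positive differences. Nothing is read from this split. The 4 rows ILMN_1708428, ILMN_1812312, ILMN_1741079 and ILMN_2172588 were called in opposite directions. They fell by 0.74, 0.61, 0.58 and 0.42 with hairpin 31 (limma adjusted p = 0.00589, 0.0175, 0.0227 and 0.0482), the last close to the threshold. With hairpin 33 they rose by 1.01, 0.60, 1.23 and 1.18. The call of ILMN_1741079 in the fall with hairpin 31 was lost without any 1 of the vehicle replicates or replicate 1 or 2 with doxycycline (limma adjusted p from 0.0679 to 0.112). It was also lost with the fit restricted to the 6 arrays (0.115), and with normalization on them as well (0.107). A block for replicate number (0.0843) or a required change above 1.2-fold removed it too. Among the 4 rows, alternatives are given for this row alone. The count of 72 was 14 with median centring, 13 more positive and 1 more negative. It was 47 without replicate 3 of the hairpin 31 vehicle group, and 46 and 40 without replicates 2 and 3 of the hairpin 33 vehicle group.

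ILMN_3291614 differed between the lines without doxycycline. It averaged 278 raw units with vehicle and 457 with doxycycline in the line with hairpin 31. In the line with hairpin 33 it averaged 497 and 443. Only the untreated level with hairpin 31 stood apart from the other 3 groups. It was the 1 row of 20376 (0.00491%) that was called between the vehicle groups, at a log2 difference of 0.98 (limma adjusted p = 0.00628), where 3.79% passed without adjustment. Its effects of doxycycline differed by -1.12 (SE 0.16, limma adjusted p = 0.00393).

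**Figure D5:**
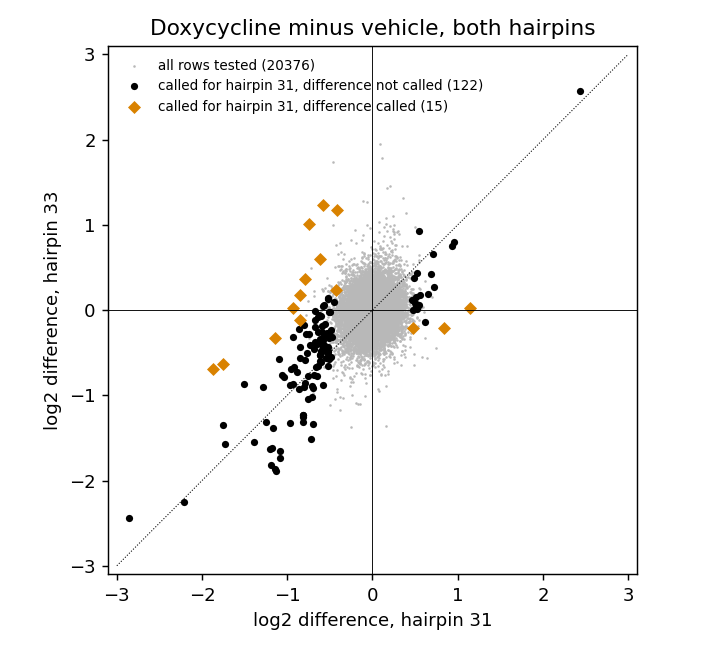
Log2 difference, doxycycline minus vehicle, with hairpin 31 (horizontal) against hairpin 33 (vertical) for all 20376 rows (grey), with the line of equality dotted. Black points are 122 rows called for hairpin 31 whose difference between hairpins was not called, and orange diamonds are the 15 for which it was. The orange points at upper left include the 4 rows called in opposite directions.

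Calls fell on rows with and without a gene symbol. Of the 137 called rows, 52 had no symbol, 43 lower and 9 higher, or 0.683% of the 7617 such rows. The 85 with 1 symbol were 0.666% of 12757, 72 lower and 13 higher. Whether these shares differ was not tested. Because the identifiers did not follow the intensities, nothing is read from this split.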

How the data were processed

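Total RNA was labelled as biotinylated cRNA and hybridised to Illumina bead arrays, per the labels. The deposited table held a linear, unnormalized bead intensity for each row and array, each followed by its detection p-value, per the file headers. The authors also deposited log2 values, which equalled the quantile-normalized log2 of those intensities within 5.08e-09, with 12 missing. Intensities were background-corrected from the detection p-values, offset by 16 and quantile-normalized over 12 arrays (neqc, limma 3.58.1, R 4.3.3). A model with 4 group means was fitted by lmFit to the 12 arrays, with eBayes moderation (prior degrees of freedom 6.98), over the 20376 rows, with Benjamini-Hochberg adjustment over all of them. The offset makes fold changes of dim rows too small. Nothing states that replicates were separate cultures, so p-values reflect only how far these samples vary, possibly for technical reasons, and the number of arrays limits precision.

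Named rows were the 10 largest called rises and falls, the 5 brightest called rows, the 5 brightest switching rows per direction and the 3 largest calls per direction for the difference between hairpins. The comparison, rules and lists were chosen with earlier results of these data known. The fit was tested on simulated data. Alternatives were another background correction, scaling, filter, variance model, array weights, a replicate block, fewer arrays and a fold threshold. Deviations of same-numbered arrays from their group means correlated at -0.197, -0.158 and 0.0568, and the numbers were not taken as pairs. With 3 arrays in each group, these correlations cannot settle whether the numbers mark pairs.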

Additional observations from a re-analysis of the deposited data

Results flagged for a closer look

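Named rows are listed here where the effect of doxycycline differed between the hairpins by the interaction test, each as hairpin 33 minus hairpin 31 on the log2 scale. The most positive differences were those of ILMN_1763746 (2.20), ILMN_1745593 (1.86) and ILMN_1741079 (1.81). In the authors' value table, without background correction, they were 0.98, 0.79 and 1.04. ILMN_1763746 stood at -0.47 with hairpin 31 (limma adjusted p = 0.321) and at 1.74 with hairpin 33 (limma adjusted p = 1.38e-05). ILMN_1745593 stood at 0.09 with hairpin 31 (limma adjusted p = 0.873), and rose by 1.95 with hairpin 33 (limma adjusted p = 4.47e-07). The most negative were those of ILMN_3277715 (-1.52), ILMN_1698894 (-1.13) and ILMN_1669362 (-1.13). In the value table they were -1.25, -0.46 and -1.08. ILMN_3277715 was at 0.16 with hairpin 31 (limma adjusted p = 0.731) and fell by 1.36 with hairpin 33 (limma adjusted p = 8.37e-06). The call of ILMN_1698894 was lost under 12 of 21 alternatives (highest limma adjusted p = 0.298), among them each fit without replicate 2 or 3 of the hairpin 31 groups. It was also lost without replicate 1 or 3 of the hairpin 33 vehicle group, and without replicate 2 or 3 of its doxycycline group (limma adjusted p from 0.0632 to 0.0845 over these 8). The call of ILMN_1669362 was lost with median centring (limma adjusted p = 0.139) and where a change above 1.2-fold was required (0.0905).

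Among the large changes of hairpin 31, ILMN_1737586 and ILMN_1806256 differed by 1.18 and 1.12, because they fell by 0.69 and 0.64 with hairpin 33 against 1.87 and 1.75. The switching row ILMN_1697559 differed by 0.81, a size that rests on doxycycline arrays of hairpin 31 where it was not well above background. The rises of ILMN_3291614 and ILMN_1719194 differed by -1.12 and -1.05, and with hairpin 33 these rows stood at 0.02 and -0.21.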

How the results depend on the processing

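The surplus of falls among called rows held under every alternative run, with 77.3% to 96.9% lower outside the fits without 1 array. The count of 137 became 207 with the authors' value table, 82 with the replicate block, 81 with a fit to the 6 arrays, 82 with normalization and fit on them, and 40 when a change above 1.2-fold was required. Without 1 array each it was 82 to 111. In these alternatives the count of 2-fold changes ran from 9 (value table) to 34 (median centring). The difference between hairpins, 72 rows, became 169 with the value table, 169 with an offset of 50, 14 with median centring, 157 with a trended, robust variance, 32 with the replicate block, 22 with the fold requirement, and 40 to 72 without 1 array each. The block removes the replicate number within each line, and 81 of its 82 calls were among the 137. Not every array correlated best with its own number. Whether the numbers mark pairs was not settled by this, so the lower count of 82 stands beside the 137. Calls shared by both hairpins in 1 direction, 75, became 24 with the fold requirement and 53 to 66 without 1 array. The median absolute difference of 0.10 was 0.051 and the median spread of 0.147 was 0.073 with the value table, where the dimmest of 10 parts no longer differed more (0.034) than the brightest (0.066). Switching rows, 148, became 16 with detection under 0.01 where on, 657 when 1 detection was allowed in the other group, and 338 to 419 without 1 array each, where 2 detections suffice. The difference in array brightness ran from -51.11 to -4.137 without 1 array each. Of the named rows' log2 differences, 1 changed sign, that of ILMN_3277715 with median centring (-0.025), a row that was not called. The cause of these shifts was not tested. Signal over background limits the rows outside the 16224 that were detected on all 6 arrays.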
